A study of Mus musculus with 12 samples.

Results

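9 genes of the Nodal pathway and of left-right patterning were followed in single mouse embryos: Nodal, Lefty1, Lefty2, Cer1, Tdgf1, Cfc1, Gdf1, Gdf3 and Foxh1. They were chosen by gene symbol for their role in the pathway, and make up 9 of the 23284 genes in the count table. Of these 9 genes, 8 had at least 1 count and 5 passed the filter on low counts (Cer1, Tdgf1, Cfc1, Foxh1 and Lefty2). RNA was sequenced from 12 whole embryos (strain background C57BL/6 x 129Sv) at 9.0 dpc (days post coitum), with about 9 to 10 somites. The 4 embryos of the WT group were wild type, and the 8 embryos with CDKO in their titles were labelled Tgif1;Tgif2 null, conditional double mutants said to have lost both copies of each gene. The homeodomain repressors Tgif1 and Tgif2 are known to limit the response of cells to TGF-beta and Nodal. Neither the Cre driver behind the conditional deletion nor the litters of the embryos are given here. A whole embryo mixes all tissues, so that fewer cells of a type and less RNA per cell cannot be told apart in any value given here.

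Nodal is a secreted ligand of the TGF-beta family that patterns the embryo in the epiblast and later marks its left side. It binds activin receptors together with a membrane-anchored co-receptor, Tdgf1 (Cripto) or Cfc1 (Cryptic), and Gdf1 and Gdf3 are related ligands that can pair with it. The receptors phosphorylate Smad2 and Smad3, which enter the nucleus with Smad4 and act with the DNA-binding protein Foxh1. Lefty1, Lefty2 and Cer1 are secreted antagonists, and the Lefty genes are themselves switched on by Nodal. At the stage of these embryos the transient left-sided expression of Nodal and Lefty2 in lateral plate mesoderm is known to be ending, and expression is confined to small numbers of cells.

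The libraries held 17296017 to 20080786 counts in the WT group and 16802367 to 21346245 in the CDKO-labelled group. Tgif1 stood at 60.9 ± 2.52 CPM (counts scaled to a common library total; SD, n = 4) in WT and at 6.2 ± 0.528 CPM (SD, n = 8) in the CDKO-labelled embryos, which lay below WT in 8 of 8 (edgeR log2 fold change -3.29, SE 0.07, adjusted p = 1.95e-14). Tgif2 was not lower, at 87.3 ± 1.17 and 97.9 ± 11.8 CPM (0.16, SE 0.08, edgeR adjusted p = 0.0958). The stretch removed from Tgif2 is unknown here, a truncated transcript would still be counted, and 61.6% of Tgif2's exonic bases are shared with opposite-strand transcripts. Its loss is therefore known only from the labels. The tailbud, heart and lateral plate marker lists each separated the groups. The mean log2(CPM + 0.5) of 8 tailbud and presomitic markers ran from 4.06 to 4.72 in WT and from 1.17 to 3.93 in the CDKO-labelled embryos. That of 6 heart markers ran from 7.02 to 7.26 and from 7.69 to 8.53. For 6 lateral plate markers it ran from 4.76 to 5.33 in WT and from 5.61 to 5.99 in the CDKO-labelled embryos. No marker on the lists for node, gut endoderm, lateral plate, heart, tailbud, epiblast, erythroid or yolk sac cells was at 0 in every embryo. Within the CDKO-labelled group embryo 2 was low in tailbud markers, embryos 7 and 8 were low in epiblast markers, and embryos 5 and 6 were highest in a list of decidual genes (values below), so results that rest on them are given with and without them.

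Of the 5 pathway genes that could be tested across all genes, 2 were lower in the CDKO-labelled embryos, Cer1 and Tdgf1, and none of the other 3 passed the threshold. The share of all tested genes called in either direction was 51.5%, the share called higher was 26.6% and the share called lower 24.9%, so 2 of 5 is not more than the background. The groups did not overlap for Cer1 and Tdgf1, with the CDKO-labelled embryos lower. Among all tested genes the groups did not overlap for 34.7%, with the CDKO-labelled embryos lower for 17.1% and higher for 17.5%. The test was edgeR's quasi-likelihood test of 14412 genes with Benjamini-Hochberg adjustment and a threshold of 0.05.

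**Figure D1:**
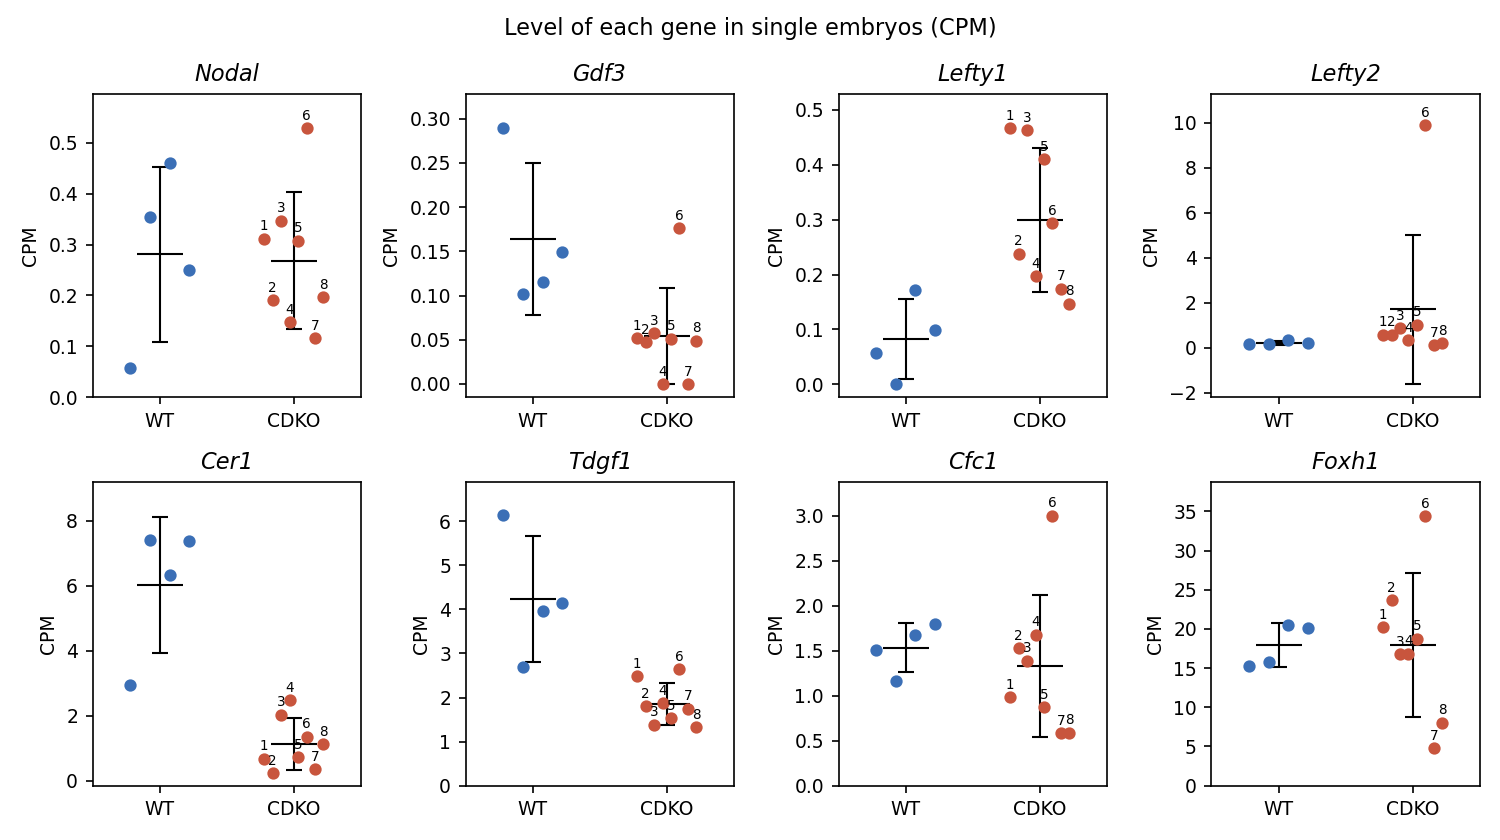
Level of 8 pathway genes in each embryo, in CPM on a linear axis that differs between panels; points are embryos (CDKO numbered), bars the group mean and SD (n = 4 WT, n = 8 CDKO). The groups are separate for Cer1 and Tdgf1 and overlap for the other 6 genes, and embryo CDKO 6 is highest for Lefty2 at 9.88 CPM.

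Nodal itself was near the limit of detection in both groups, with 21 counts in all 4 WT embryos together and 40 in the 8 CDKO-labelled embryos. The gene lies on chromosome 10, 61417972 to 61425338 on the plus strand (GRCm38). WT embryos 1 to 4 gave 0.0579, 0.354, 0.461 and 0.249 CPM, and CDKO embryos ranged from 0.116 to 0.529 CPM with a median of 0.252 CPM. The ranges overlapped broadly, and WT embryo 1 was the lowest of all 12. The difference of the means, CDKO minus WT, was -0.0122 CPM (two-sided exact permutation test over all splits of the embryos, p = 0.891), and without the count filter edgeR put the log2 fold change at -0.08 (adjusted p = 0.913, SE 0.46). With so few counts a change in Nodal of moderate size was not detectable at this depth.

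Gdf3, a ligand of pluripotent cells and the early embryo (chromosome 6, 122605403 to 122610087, minus strand, GRCm38), was also rare, with 12 counts in WT and 8 in the CDKO-labelled embryos. The 4 WT embryos gave 0.29, 0.101, 0.115 and 0.15 CPM in order. CDKO embryos ranged from 0, in embryos 4 and 7, to 0.176 CPM in embryo 6, with a median of 0.0502 CPM, and 7 of 8 lay below the lowest WT embryo. A count of 0 in a library allows up to 3 counts, by counting error alone. The difference was -0.11 CPM (two-sided exact permutation test, p = 0.0182), but edgeR without the filter gave -1.50 on the log2 scale (SE 0.62) with an adjusted p of 0.0662 and DESeq2 -1.62 with 0.148. Without WT embryo 1 the difference was -0.0677 CPM (exact permutation p = 0.0848), so 1 embryo decides whether it passes.

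Gdf1 had 0 counts in all 12 embryos, as did its neighbour Lass1 (Cers1). In GENCODE M21 the gene spans chromosome 8, 70329817 to 70331587 on the plus strand (GRCm38), and all 1349 of its exonic bases (100%) also lie in exons of Cers1 on the same strand. Of Cers1's own exonic bases, 42.7% are shared. How the counting treated reads shared by overlapping genes is not stated, so the value of 0 does not measure whether Gdf1 was expressed.

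Among the antagonists the direction differed: Cer1 fell and Lefty1 was higher in the CDKO-labelled embryos. Lefty1 and Lefty2 are neighbours on chromosome 1 (180935022 to 180938400 and 180893108 to 180899103, plus strand, GRCm38), and their transcripts are 91.4% identical over 1157 bases, so that reads in the most similar stretches may be assigned to either gene.

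Lefty1, which marks the midline and restrains Nodal there, had 6 counts in WT and 45 in the CDKO-labelled embryos. WT embryos 1 to 4 gave 0.0579, 0, 0.173 and 0.0997 CPM. CDKO embryos 1 to 8 gave 0.467, 0.238, 0.463, 0.197, 0.41, 0.294, 0.175 and 0.147 CPM. All CDKO embryos but embryo 8 lay above the highest WT embryo, 7 of 8 in all, although CDKO 7 and WT embryo 3 had 3 counts each and were nearly equal in CPM. The mean was 0.0826 ± 0.0727 CPM (SD, n = 4) in WT and 0.299 ± 0.131 CPM (SD, n = 8) in CDKO, a difference of 0.216 CPM (two-sided exact permutation test, p = 0.0162). With no count filter edgeR put the log2 fold change at 1.80 (adjusted p = 0.0178, SE 0.57) and DESeq2 1.87 (adjusted p = 0.0336). The exact p stayed under 0.05 when any 1 embryo was left out, with differences from 0.189 to 0.246 CPM, and was 0.0381 without embryos CDKO 5 and 6 (difference 0.199 CPM).

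Lefty2, the antagonist of the left lateral plate, was led by 1 embryo. WT embryos 1 to 4 gave 0.174, 0.152, 0.345 and 0.199 CPM. CDKO embryos 1 to 8 gave 0.571, 0.571, 0.868, 0.345, 1.03, 9.88, 0.116 and 0.196 CPM. Embryo CDKO 6 held 168 of the group's 239 counts and stood 9.63 times above the next highest embryo, while the other 7 CDKO embryos averaged 0.528 ± 0.337 CPM (SD). In the CDKO-labelled group 6 embryos lay above the highest WT embryo and embryo 7 lay below the lowest. The log2 fold change was 2.90 (SE 1.42, 95% interval -0.21 to 6.01, edgeR adjusted p = 0.109), and 1.27 (SE 0.54, adjusted p = 0.063) without embryo CDKO 6. Lefty2 passed the count filter only through the CDKO-labelled embryos, and without embryos CDKO 5 and 6 it did not pass it.

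Other genes stood out in the same embryo as Lefty2. Of the 14412 genes tested, 6 were at least 4-fold above every other embryo in CDKO 6: Lefty2, Abp1, Beta-s, Ctla2a, Htra1 and Lgals3. The number was 1 in CDKO 4 (Rps3a) and 0 in each of the other 10 embryos. Prl8a2, a prolactin-family gene of the decidua, stood at 35.9 CPM in CDKO 6 and at no more than 0.41 CPM in any other embryo. Gzmd, a granzyme of uterine natural killer cells, stood at 3.88 CPM in CDKO 6 and 2.82 CPM in CDKO 5, and at no more than 0.152 CPM elsewhere. A list of 10 genes of decidua and uterine natural killer cells, written after these values were seen, was detected in full, with 9 genes highest in CDKO 6. Their summed level was 124 CPM in CDKO 6, 74.0 CPM in CDKO 5, 56.8 to 71.7 CPM in the other CDKO embryos and 42.3 to 47.2 CPM in WT. Cryab, Wnt4 and Angpt2 made up most of this sum in every embryo. Each was called higher in the CDKO-labelled embryos, as were 26.6% of all tested genes. Cryab alone ran from 25.9 to 34.9 CPM in WT and from 31.9 to 51.0 CPM in CDKO. How much of the RNA of these genes is maternal was not tested. Of 9 genes of adult blood cells on a list written in the same way, 6 were detected, 3 of them highest in CDKO 6, with a sum of 19.8 CPM there, 2.31 CPM in CDKO 5, 0.19 to 4.57 CPM in the other CDKO embryos and 1.39 to 3.95 CPM in WT. Beta-s, an adult globin, stood at 19.0 CPM in CDKO 6. The part of maternal tissue in the Lefty2 value of that embryo was not tested.

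Cer1, a secreted antagonist of Nodal, BMP and Wnt ligands, showed the largest fall of the 5 genes tested. WT embryos 1 to 4 gave 2.95, 7.39, 6.33 and 7.38 CPM. CDKO embryos 1 to 8 gave 0.675, 0.238, 2.02, 2.47, 0.718, 1.35, 0.349 and 1.13 CPM. Every CDKO embryo lay below every WT embryo, with CDKO 4 closest to WT embryo 1 and CDKO 2 lowest. The mean fell from 6.01 ± 2.1 CPM (SD, n = 4) to 1.12 ± 0.795 CPM (SD, n = 8), a log2 fold change of -2.43 (95% interval -3.37 to -1.49, SE 0.44, edgeR adjusted p = 0.000461). Without embryos CDKO 5 and 6 it was -2.39 (adjusted p = 0.00302).

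The level of Cer1 was compared with the tailbud markers among the CDKO embryos, and no version of the relation passed after adjustment. Over the 7 CDKO embryos other than embryo 2, which stands apart in its tailbud score of 1.17, Pearson's r between the tailbud score and log2(CPM + 0.5) of Cer1 was 0.83 (exact permutation p = 0.0286, Benjamini-Hochberg adjusted p = 0.0816 over 20 relations) and Spearman's rho was 0.75 (exact permutation p = 0.0663, adjusted p = 0.166). Over all 8 CDKO embryos r was 0.76 (exact permutation p = 0.00561, adjusted p = 0.0561) and rho 0.83 (exact permutation p = 0.0154, adjusted p = 0.103), and without embryos 2 and 7, the 2 farthest in the score, r was 0.70. With the tailbud score as a covariate the log2 fold change of Cer1 was -0.96 (edgeR adjusted p = 0.0835), and with the heart score it was -0.04 (SE 1.62, adjusted p = 0.989). Both scores separate the groups, so the genotype and the scores cannot be told apart in these fits.

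The promoters of the 2 genes that fell are shown because their differences are those that passed the test. Each sequence is the 250 bases before the RefSeq transcript start (GRCm38.p6), 5′ to 3′ on the gene's strand, with capitals for matches to 3 short motifs searched on both strands: TGTNNATT (Foxh1), CAGAC (Smad) and TGTCA (Tgif).
Cer1, chr4:82885152-82885401, minus strand: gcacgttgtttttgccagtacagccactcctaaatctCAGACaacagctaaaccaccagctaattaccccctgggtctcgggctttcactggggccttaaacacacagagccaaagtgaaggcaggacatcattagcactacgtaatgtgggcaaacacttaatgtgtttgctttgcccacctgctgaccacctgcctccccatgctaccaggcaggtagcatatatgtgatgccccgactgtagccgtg
Tdgf1, chr9:110946159-110946408, minus strand: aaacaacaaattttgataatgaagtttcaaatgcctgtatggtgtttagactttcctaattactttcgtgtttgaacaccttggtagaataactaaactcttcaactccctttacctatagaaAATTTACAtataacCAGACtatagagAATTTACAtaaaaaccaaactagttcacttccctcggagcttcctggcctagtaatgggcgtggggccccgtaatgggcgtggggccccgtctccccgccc
The Cer1 window holds 1 match, CAGAC at 213 bases before the start. The Tdgf1 window holds 2 matches to the Foxh1 motif, at 127 and 101 bases before the start, with 1 CAGAC match between them at 113. Of 32851 promoter windows of this length, 10.9% hold TGTNNATT, 42.2% CAGAC and 39.95% TGTCA, so single matches to the short motifs are common. A match to these letters describes the sequence and does not show binding.

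Tdgf1, the co-receptor of the epiblast and primitive streak (chromosome 9, 110939603 to 110946158, minus strand, GRCm38), also fell. WT embryos 1 to 4 gave 6.14, 2.68, 3.97 and 4.14 CPM. CDKO embryos 1 to 8 gave 2.49, 1.81, 1.39, 1.88, 1.54, 2.65, 1.75 and 1.32 CPM. All 8 CDKO embryos were lower than the lowest WT embryo, although CDKO 6 at 2.65 and WT embryo 2 at 2.68 CPM were nearly equal. The mean was 4.23 ± 1.43 CPM (SD, n = 4) in WT and 1.85 ± 0.485 CPM (SD, n = 8) in CDKO, a log2 fold change of -1.19 (SE 0.22, 95% interval -1.66 to -0.72, edgeR adjusted p = 0.000381). Without embryos CDKO 5 and 6 it was -1.25 (adjusted p = 0.000588), and with the heart score as a covariate -1.12 (SE 0.53, adjusted p = 0.173). The heart score separates the groups, so genotype and score cannot be told apart in that fit. A near-identical processed pseudogene on chromosome 16, Tdgf1-ps1 (98.8% identity over 512 bases), has no row in the table, and whether reads were split between them is not given.

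Cfc1, the co-receptor most tied to left-right patterning (chromosome 1, 34535648 to 34544313, plus strand, GRCm38), did not differ beyond the spread between embryos. Its level was 1.51, 1.16, 1.67 and 1.79 CPM in WT embryos 1 to 4. CDKO embryos ranged from 0.582 CPM in embryo 7 to 3.0 CPM in embryo 6, with a median of 1.19 CPM. The CDKO-labelled group reached beyond WT on both sides, with 4 embryos below the lowest WT embryo and 1 above the highest. The log2 fold change was -0.21 (SE 0.36, 95% interval -0.99 to 0.56, edgeR adjusted p = 0.648). Without embryos CDKO 5 and 6 it was -0.44 (adjusted p = 0.244). Its exons share 289 bases (27.8%) with Prss40 on the opposite strand, and whether the counting used strand is not stated.

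Foxh1, the transcription factor that brings Smad complexes to Nodal target genes (chromosome 15, 76668225 to 76669948, minus strand, GRCm38), had equal means and unequal spread. Values were 15.3, 15.8, 20.6 and 20.2 CPM in WT embryos 1 to 4. CDKO embryos 1 to 8 gave 20.3, 23.7, 16.8, 16.8, 18.8, 34.4, 4.77 and 8.05 CPM. Embryos CDKO 7 and 8 were below every WT embryo and embryos CDKO 2 and 6 above every one. The mean was 18.0 ± 2.8 CPM (SD, n = 4) in WT and 17.9 ± 9.14 CPM (SD, n = 8) in CDKO, with a log2 fold change of -0.0019 (SE 0.40, 95% interval -0.88 to 0.88, edgeR adjusted p = 0.997). The coefficient of variation was 15.6% in WT and 50.9% in the CDKO-labelled embryos, where the highest and lowest embryo differed 7.21-fold. The difference in spread was not tested. Without embryos CDKO 7 and 8 the log2 fold change was 0.28 (adjusted p = 0.268), and without embryos CDKO 5 and 6 it was -0.25 (adjusted p = 0.62).

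Per kilobase of the longest GENCODE M21 transcript, a scale on which genes can be compared with each other, Foxh1 was the most abundant of the 8 genes with counts. In WT it stood at 13.2 ± 2.05 CPM per kb (SD, n = 4), followed by Cer1 at 3.46 ± 1.21, Tdgf1 at 2.19 ± 0.739 and Cfc1 at 1.47 ± 0.262 CPM per kb. The means of Cer1 and Tdgf1, and those of Tdgf1 and Cfc1, differed by about as much as the SD of one of them or less. The ligands and Lefty genes were far lower, with Nodal at 0.134 ± 0.082, Lefty2 at 0.088 ± 0.0353, Gdf3 at 0.0771 ± 0.0406 and Lefty1 at 0.051 ± 0.0449 CPM per kb in WT, and neighbours in that order lay within 1 SD of each other. In the CDKO-labelled embryos (SD, n = 8) the levels were 13.1 ± 6.69 CPM per kb for Foxh1, 1.28 ± 0.761 for Cfc1, 0.959 ± 0.251 for Tdgf1 and 0.644 ± 0.457 for Cer1. Cer1 thus went from above the co-receptors to below both in the order of means, with overlapping spreads in CDKO. Lefty2 averaged 0.686 ± 1.34, Lefty1 0.185 ± 0.0809, Nodal 0.128 ± 0.0642 and Gdf3 0.0255 ± 0.0257 CPM per kb there, so Lefty1 changed from the lowest detected level in WT to above Gdf3 and Nodal in CDKO.

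**Figure D2:**
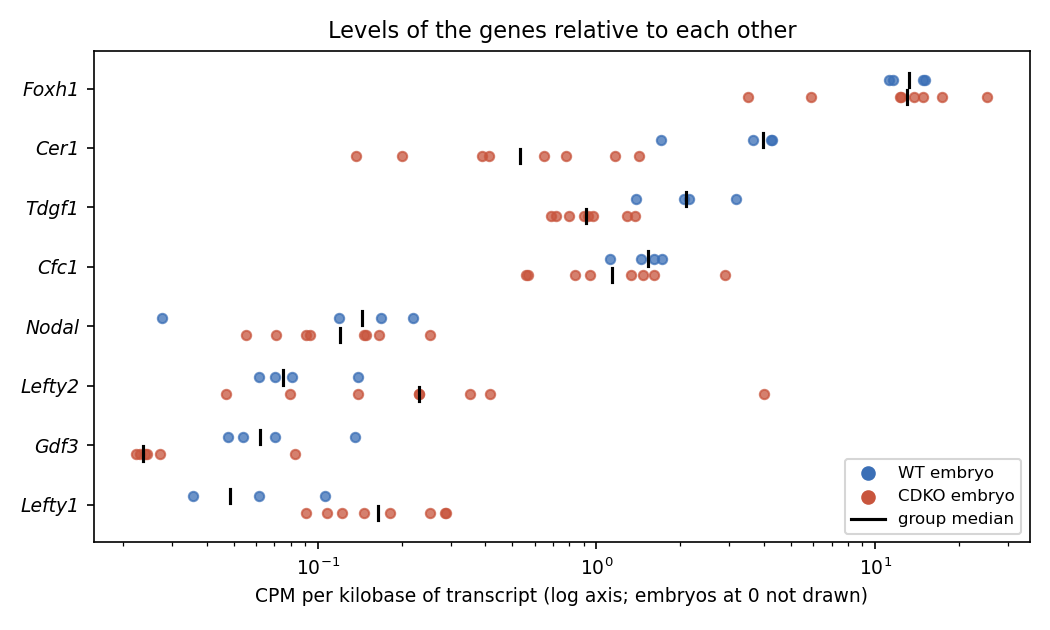
Level of each detected gene in every embryo, in CPM per kilobase of its longest transcript on a log axis, with the group median as a bar; embryos at 0 are not drawn. Foxh1 lies highest at 13.2 CPM per kb in WT, and Nodal, the Lefty genes and Gdf3 average below 0.2 CPM per kb in WT.

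Several of the genes had their extremes in the same CDKO-labelled embryos. Embryo CDKO 6 was the highest of the 8 for 6 of the 8 detected genes (Nodal, Lefty2, Tdgf1, Cfc1, Gdf3 and Foxh1), and embryo CDKO 7 was the lowest, or tied for it, for 5 (Nodal, Lefty2, Cfc1, Gdf3 and Foxh1). Cer1, highest in CDKO 4 and lowest in CDKO 2, and Lefty1, highest in CDKO 1, did not follow that order. For Gdf3 the place of CDKO 6 rests on 3 counts against at most 1 in the other CDKO embryos. For Nodal it rests on 9 counts against at most 6. The share of all genes with their extremes in these embryos was not computed, so the counts do not show a trait of these genes. No pair among Lefty2, Cer1, Tdgf1, Cfc1 and Foxh1 passed over the 8 CDKO embryos: Pearson's r was 0.83 for Cfc1 and Foxh1 (exact permutation p = 0.012, Benjamini-Hochberg adjusted p = 0.0598), the pair with the lowest p, and -0.09 for Cer1 and Tdgf1. Pou5f1, the pluripotency factor of the epiblast, followed Foxh1 among the CDKO embryos, over which it was also the gene nearest in profile. In WT it did not, with WT 3 highest for Foxh1 and lowest for Pou5f1. Pou5f1 stood at 2.95, 2.53, 1.78 and 3.59 CPM in WT embryos 1 to 4. In CDKO embryos 1 to 8 it stood at 1.82, 3.43, 1.97, 2.07, 1.54, 4.35, 0.116 and 0.392 CPM. Its lowest values were in CDKO 7 and 8 and its highest in CDKO 6, as for Foxh1, and the groups overlapped (log2 fold change -0.47, edgeR adjusted p = 0.497). Dnmt3b, a DNA methyltransferase abundant in the epiblast, stood at 68.3 and 88.5 CPM in CDKO 7 and 8, at 122 to 144 CPM in the other 6 and at 158 to 182 CPM in WT. The other 2 epiblast markers did not show this order. Utf1 stood at 0.233 and 0.294 CPM in CDKO 7 and 8 and at 0.257 to 0.883 CPM in the other 6, highest in CDKO 1. Nanog had from 0 to 2 counts per embryo. The mean log2(CPM + 0.5) of the 4 epiblast markers was 0.99 and 1.24 in CDKO 7 and 8, 1.72 to 2.18 in the other CDKO embryos and 1.94 to 2.20 in WT.

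Since embryos CDKO 7 and 8 stand apart, the relation of Foxh1 to the epiblast markers was computed over the other 6. Pearson's r was 0.89 (exact permutation p = 0.0208, Benjamini-Hochberg adjusted p = 0.139 over 20 relations) and Spearman's rho was 0.77 (exact permutation p = 0.103, adjusted p = 0.681), so the relation does not pass after adjustment within these 6 embryos. Over all 8 CDKO embryos r was 0.98 (exact permutation p = 0.000372, adjusted p = 0.00744) and rho 0.90 (exact permutation p = 0.00456, adjusted p = 0.0913), so the call rests on embryos CDKO 7 and 8. For Cfc1 the same r was 0.72 (exact permutation p = 0.106, adjusted p = 0.353) and for Tdgf1 0.91 (exact permutation p = 0.0194, adjusted p = 0.139). With the epiblast score as a covariate the log2 fold change of Foxh1 was 0.57 (edgeR adjusted p = 0.0101), against -0.0019 without it. That p-value is not read as a test. The score was chosen after seeing the data, and it follows Foxh1 closely over the 8 CDKO embryos.

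**Figure D3:**
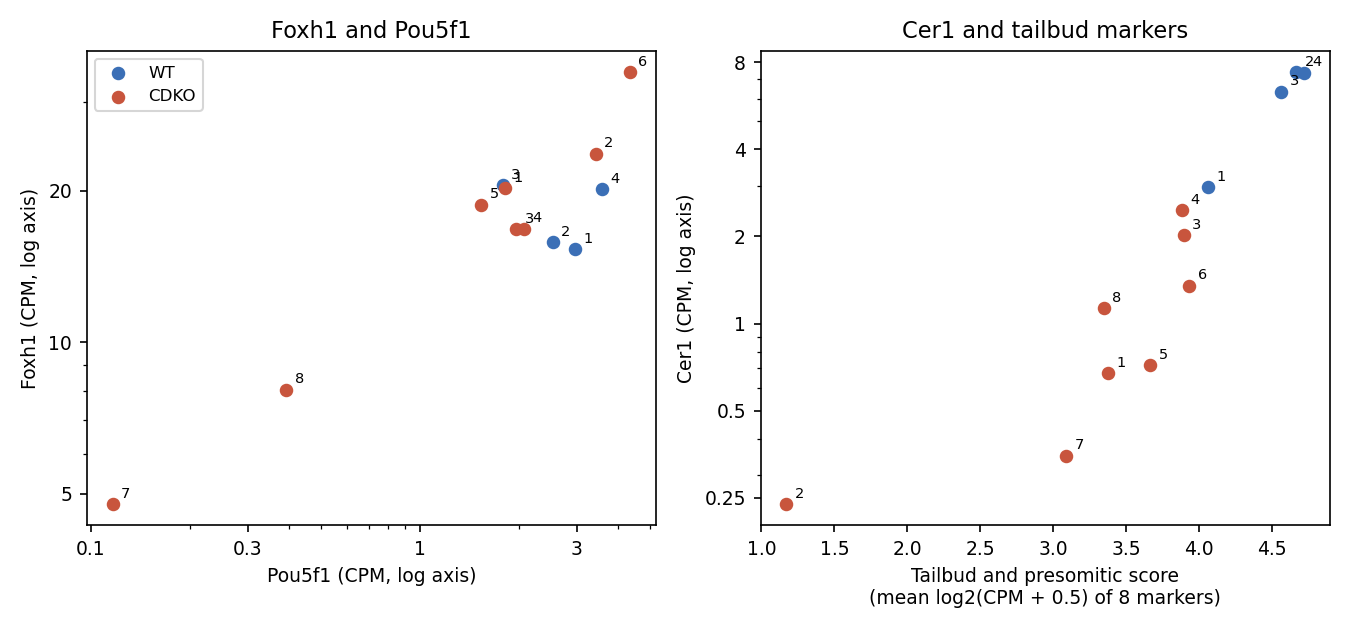
Left, Foxh1 against Pou5f1 in each embryo, in CPM on log axes; right, Cer1 in CPM on a log axis against the mean log2(CPM + 0.5) of 8 tailbud and presomitic markers; points are embryos, numbered within their group. Embryos CDKO 7 and 8 are lowest for both genes on the left (Foxh1 4.77 and 8.05 CPM), and embryo CDKO 2 is lowest for both measures on the right (Cer1 0.238 CPM).

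The genes whose profile over the 8 CDKO embryos lay nearest to that of Foxh1 were Pou5f1, Sfrp5, a secreted Wnt antagonist, and Pyy, a gut hormone gene of early endoderm. Their root mean square differences in centred log2(CPM + 0.5) were 0.23, 0.26 and 0.26. The nearest to Cer1 were Ppef2, Peli3 and Fezf1, a zinc finger gene of the forebrain, at 0.36, 0.38 and 0.40. Fezf1 (log2 fold change -0.72, edgeR adjusted p = 0.00795) and Ppef2 (-1.32, adjusted p = 0.00623) also fell between the groups, while Peli3 did not pass the threshold (0.40, adjusted p = 0.223). Lefty2 and Cfc1, with means under 2 CPM, and Tdgf1, with an SD under 0.5 on the log2 scale, were not matched in this way, and neither were the rarer genes.

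Of the receptors and Smads of the pathway, 6 of 7 were tested, 0 rose, 3 fell and 3 did not pass, with a median log2 fold change of -0.14 beside 0.01 over all genes tested. As a share, 3 of 6 called is near the 51.5% over all tested genes. Smad2, an effector of Nodal, fell from 110 ± 2.98 to 88 ± 3.04 CPM (log2 fold change -0.32, edgeR adjusted p = 8.44e-06), Acvr2b, a type II receptor of Nodal, from 57.1 ± 3.85 to 43.3 ± 6.54 CPM (-0.40, adjusted p = 0.0053), and Smad4, the common partner, from 185 ± 2.5 to 166 ± 8.41 CPM (-0.16, adjusted p = 0.00718). The 8 CDKO embryos lay below every WT embryo for each of these 3 genes, as for 17.1% of all tested genes. Acvr1b, the type I receptor, had a log2 fold change of 0.12 (adjusted p = 0.113), Acvr2a -0.12 (adjusted p = 0.487) and Smad3 0.02 (adjusted p = 0.815), and Acvr1c did not pass the count filter.

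Of the 8 genes of ligand processing and intracellular restraint, all tested, 3 rose, 1 fell and 4 did not pass, with a median of 0.23. The 4 of 8 called is near the background of 51.5%. Furin and Pcsk6, proprotein convertases that cleave the Nodal precursor, rose by 0.65 (edgeR adjusted p = 1.74e-05) and 0.40 (adjusted p = 0.00449) on the log2 scale, Furin from 83.7 ± 9.48 to 131 ± 13.1 CPM with 8 of 8 CDKO embryos above every WT embryo, as for 17.5% of all tested genes. Smad7, an inhibitory Smad, rose by 0.46 (adjusted p = 0.000954) in 8 of 8. Skil, a Smad corepressor, had a log2 fold change of -0.30 (adjusted p = 0.0117), which was -0.15 (adjusted p = 0.0713) once a trend on GC content and length was removed. Dand5, the Nodal antagonist of the left-right organiser, did not pass (0.39, adjusted p = 0.0773; 7 of 8 CDKO embryos above the highest WT embryo).

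Of the Nodal targets on the list, 8 of 9 were tested, 0 rose, 3 fell and 5 did not pass, with a median of -0.20. The 3 of 8 called is below the background of 51.5%. Mesp1 (-1.24, adjusted p = 0.0234), Mixl1 (-1.02, adjusted p = 0.0498) and T (-0.99, adjusted p = 0.0443), genes of the primitive streak and nascent mesoderm, were lower with overlapping groups. T, which is also a tailbud gene, lost its call without any 1 of the 4 WT embryos or of CDKO 1, 5, 7 and 8 (adjusted p up to 0.105), Mixl1 without any 1 of WT 2, 3 and 4 and CDKO 1, 4, 5, 7 and 8 (up to 0.172), and Mesp1 without WT 3 or WT 4 (up to 0.103). Without WT 3 or WT 4, 0 of these targets were called. With the tailbud score as a covariate the log2 fold changes of Mesp1, Mixl1 and T were 0.06, 0.54 and 0.05. That score separates the groups, so genotype and score cannot be told apart in that fit. Gsc (-0.43), Lhx1 (0.02), Foxa2 (0.03), Hhex (0.23) and Sox17 (0.33) did not pass, and Eomes did not pass the count filter. Mesp1 had at least 10 counts only in WT 2, 3 and 4 and CDKO 3, so it passed the filter mainly through the group where it was higher. It was tested under 23 alternatives, against 25 for T and Mixl1.

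Of 22 genes of cilia, flow sensing and laterality, 19 were tested, 2 rose, 7 fell and 10 did not pass, with a median of -0.19. The 9 of 19 called is near the background of 51.5%, and without WT 2 the number called was 5. Nme7 fell by 0.42 (edgeR adjusted p = 4.69e-06), Invs, which encodes inversin, by 0.48 (adjusted p = 0.000278) and Ccdc39, needed for motile cilia, by 0.76 (adjusted p = 0.00966) on the log2 scale. Bicc1, an RNA-binding protein of the flow response, rose by 0.60 (adjusted p = 0.00146) and Shroom3, an actin regulator, by 0.44 (adjusted p = 0.000436). These 5 calls were kept when any 1 embryo was left out. With the heart score as a covariate Invs (-0.17, SE 0.19, adjusted p = 0.59) and Ccdc39 (0.24, SE 0.47, adjusted p = 0.767) did not pass. Neither did Bicc1 (0.74, SE 0.30, adjusted p = 0.118) and Shroom3 (0.54, SE 0.20, adjusted p = 0.0853). Their estimates were not smaller than without the score, but the SEs rose from 0.13 and 0.08. Ccdc39 also did not pass with the tailbud score (-0.60, adjusted p = 0.131). Both scores separate the groups, so genotype and score cannot be told apart in these fits. Smaller falls, from -0.30 to -0.14, were called for Nek8, Pkd2, Cited2 and Kif3b. These were lost without single embryos: Kif3b without WT 1 or WT 2 (adjusted p up to 0.109), Nek8 without WT 2, 3 or 4 or CDKO 2 or 4 (up to 0.0788), Pkd2 without any WT embryo or CDKO 2, 3 or 5 (up to 0.0736), and Cited2 without any embryo except CDKO 2 or 5 (up to 0.126). Foxj1, the regulator of motile cilia, did not pass (-0.52, adjusted p = 0.0546), and Noto of the node did not either (-0.46, adjusted p = 0.444). Noto is also on the list of node, notochord and floor plate markers. The mean log2(CPM + 0.5) of that list ran from 3.12 to 3.53 in WT and from 2.41 to 3.27 in CDKO, with overlapping groups. Of its 6 markers 2 fell, Shh and T, and 0 rose, and 2 of 6 called is below the background of 51.5%. The part of these markers in the result was not tested.

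**Figure D4:**
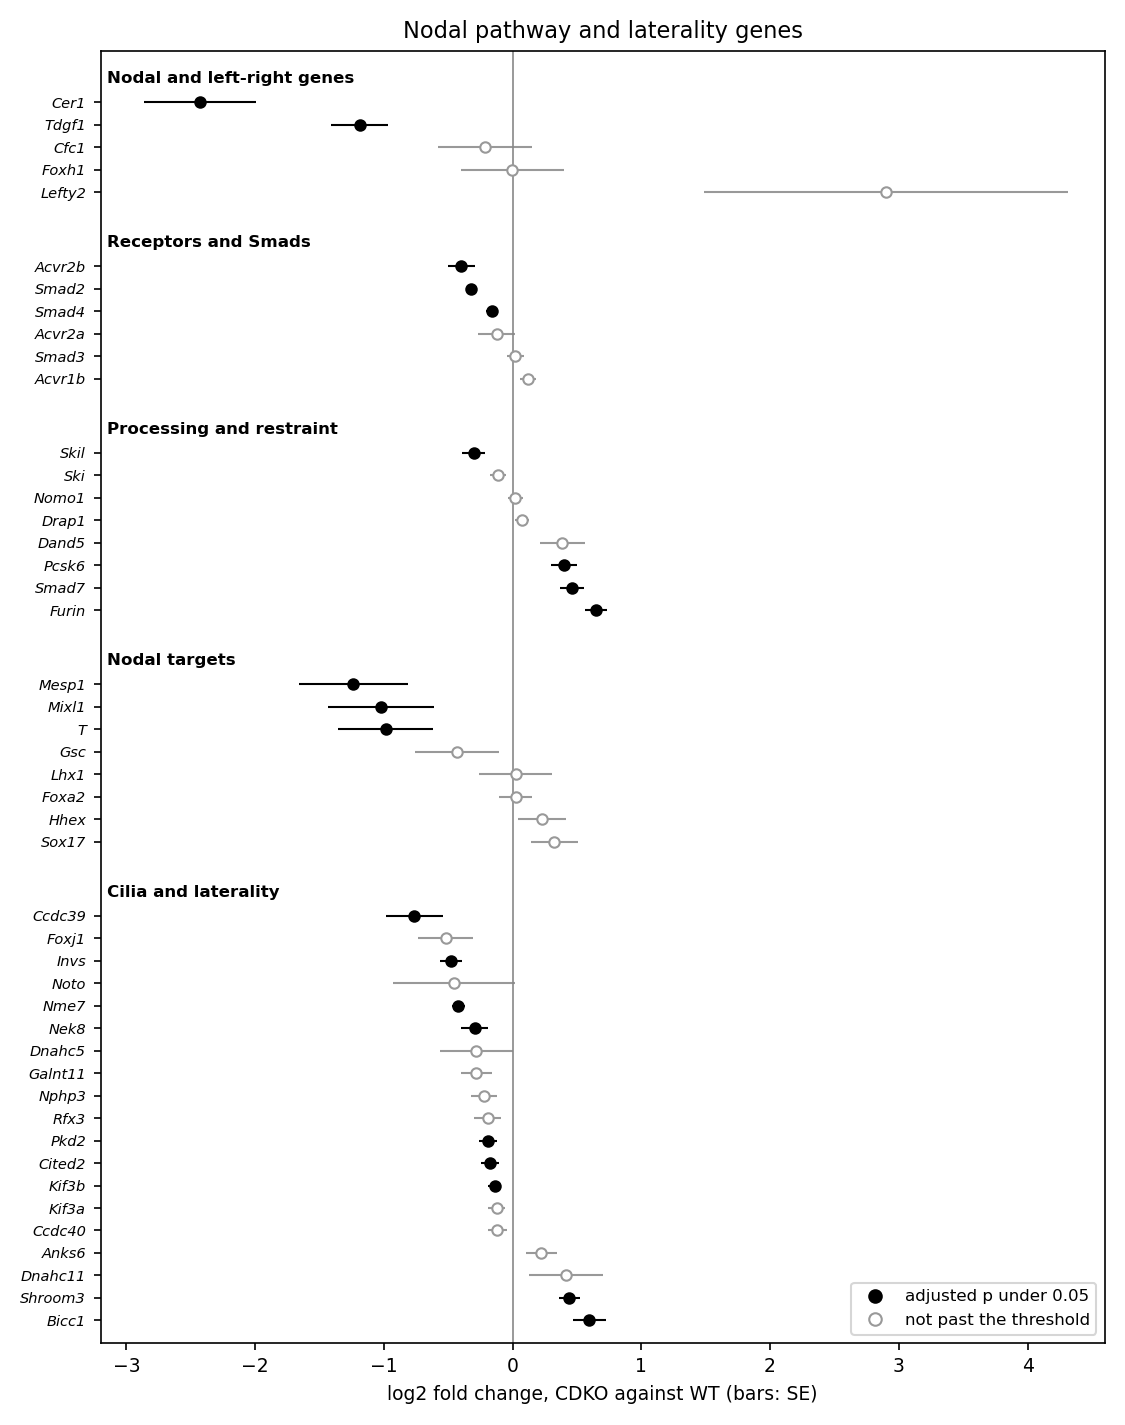
Log2 fold change of CDKO-labelled against WT embryos with its SE for each tested gene of the pathway lists; filled points passed an adjusted p of 0.05 in edgeR. Cer1 at -2.43 is the lowest and Lefty2 at 2.90, with the widest SE, the highest and not past the threshold.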

How the data were processed

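Raw counts for each gene symbol were deposited by the authors, 1 column per embryo. Libraries were poly-A selected and sequenced as paired reads of 50 bases, per the labels' protocols. The submitters' processing notes name mm9 as the build and list STAR, featureCounts, FastQC and DESeq2 as tools. Tool versions, the gene annotation, the use of strand and the handling of multi-mapped or shared reads are not stated there.

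The count test was edgeR 4.0.16 (R 4.3.3): a robust quasi-likelihood F test without covariates after TMM scaling and filterByExpr (minimum count 10, Benjamini-Hochberg over 14412 genes, threshold 0.05). CPM is the count scaled to a common library total after TMM scaling. Genes below the filter were compared by a two-sided exact permutation test of mean CPM, and by edgeR without the filter. The pseudocount was 0.5. On simulated counts for these 14412 genes the test recovered 36 of 62 genes changed 1.5-fold, 66 of 70 changed 2-fold and 66 of 68 changed 4-fold, and 12 of 180 genes called were unchanged. All other genes were simulated without a change, whereas 51.5% of genes were called in the real data. These rates therefore need not hold for the real comparison.

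Replicate numbers follow sample order and pair nothing. Each library is 1 embryo, and the p-values rest on the variation among embryos, whose litters are unknown. No pair within a group was within sampling noise (chi-square per degree of freedom at least 3.89, over genes whose pooled count reached 20). The members, lists and alternatives were chosen with earlier results of these data known. Genes named are the 9 genes, Tgif1 and Tgif2, list genes called or standing beside a result, and the 3 genes nearest in profile to each gene with a mean of at least 2 CPM and an SD of at least 0.5. The genes standing out in CDKO 6 were chosen after their values were seen. Near-identical copies were found by BLAST of GENCODE M21 transcripts. Positions are GRCm38, not the authors' build, and serve only for annotation. Promoters are from RefSeq (GRCm38.p6), where Nodal, Cer1, Tdgf1, Cfc1 and Gdf1 were matched. Dnah11, Dnah5, Cers1 and Foxf1 were read under older symbols, and Pkd1l1 was not analysed here. Some list genes are not reported here and were left out of the list counts. Alternatives were DESeq2 1.42.0, upper-quartile and RLE scaling, limma 3.58.1 voom with quality weights, other count filters, removal of a GC and length trend, marker scores as covariates, and embryos left out. Intervals on counts cover counting error only.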

Additional observations from a re-analysis of the deposited data

Results flagged for a closer look

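Among 58 groups of embryos checked for a single value far from the others, 5 had one, and chance gives about 1 in 20. Embryo CDKO 6 was far above the other CDKO embryos for Lefty2 (9.88 CPM against 0.116 to 1.03), for Cfc1 (3.0 CPM against 0.582 to 1.68) and for Gdf3 (0.176 CPM against 0 to 0.0578). The Gdf3 value of CDKO 6 is 3 counts against at most 1 in the other CDKO embryos, so the rate of 1 in 20 need not hold for it. Embryo CDKO 6 was far below the other CDKO embryos for Bicc1 (24.8 CPM against 33.7 to 41.6). WT embryo 1 was below the other WT embryos for Nek8 (5.97 CPM against 6.56 to 6.63).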

How the results depend on the processing

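No paired analysis was possible, because each library is 1 embryo and no litter or other link between WT and CDKO embryos is given. Lefty1 kept its direction and an exact permutation p under 0.05 under each of the 17 alternatives run for it. Lefty1, Nodal and Gdf3 were below the count filter, so none of them had a fit with a marker score as a covariate. Foxh1, at about 0 on the log2 scale, changed sign with upper-quartile scaling (0.0054), no count filter (0.0064), the tailbud covariate (0.0074), the epiblast covariate (0.57) and without CDKO 7 and 8 (0.28), and ran from -0.20 to 0.14 with 1 embryo left out. Cfc1 changed sign with the epiblast covariate (0.33) and without CDKO 7 and 8 (0.026). Nodal changed sign without CDKO 7 and 8 (0.0251 CPM) and ran from -0.0864 to 0.0478 CPM with 1 embryo left out. Lefty2 had values of 4.13 with the tailbud and 3.92 with the epiblast covariate, whose p-values are not read as tests since it entered the fit only through the CDKO embryos and is carried by CDKO 6, and ran from 1.27 to 3.19 with 1 embryo left out. Cer1 did not pass with the tailbud (-0.96) and heart (-0.0436) covariates, nor Tdgf1 with the heart covariate (-1.12); with 1 embryo left out they ran from -2.71 to -2.27 and from -1.36 to -0.96. Gdf3 did not pass without CDKO 7 and 8 (-0.0997 CPM, exact permutation p = 0.0571) or without CDKO 2 and WT 1 (-0.0668 CPM), and ran from -0.131 to -0.0677 CPM with 1 embryo left out. The causes were not tested. Genes called numbered 2072 with the heart covariate and 6485 to 7524 with 1 embryo left out. The tailbud and heart scores separate the groups, so genotype and score cannot be told apart in any fit with either. List calls (receptors and Smads, processing, targets, cilia) numbered 1, 2, 0 and 6 with the tailbud covariate and 0, 1, 0 and 2 with the heart covariate. Targets called were 1 with no filter, and receptors 5 without CDKO 7 and 8; with 1 embryo left out targets ran from 0 to 3 and cilia genes from 5 to 10. Signs changed with the tailbud covariate for Mesp1 (0.0578), Mixl1 (0.54) and T (0.0468), and with the heart covariate for Ccdc39 (0.24), Mesp1 (0.94), Mixl1 (1.67), Nek8 (0.0552), Pcsk6 (-0.0523), Skil (0.13), T (1.26) and Tgif2 (-0.30). Depth limits Nodal, Gdf3 and Lefty1, whose libraries held from 0 to 9 counts each. The omissions of embryos 7 and 8 and of 5 and 6, and the epiblast covariate, were chosen after seeing the data.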
